A study of Catharanthus roseus with 35 samples.

Results

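A set of 150 genes of Catharanthus roseus (Madagascar periwinkle) had abundant transcripts in leaf protoplasts and scarce ones in intact leaves. They were chosen among 35722 genes from the counts themselves. Counts were scaled by the sample total to counts per 1000000 (CPM). Of the 3422 genes with a mean of at least 50 CPM in total protoplasts, 3328 had idioblast and mesophyll protoplast means less than 4-fold apart. The 150 genes with the largest log2 ratio of total protoplasts to leaves were taken from these, with 1 CPM added to both terms and the leaf term being the highest mean among 5 leaf groups. The difference between total protoplasts and these leaves is therefore how the genes were chosen, and it is given as a description.

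Protoplasts are plant cells freed of their walls by enzymes. Wall digestion, wounding and osmotic change are well known to alter transcription in plant cells within hours, with defence, stress and wall genes among those that typically respond, so a protoplast transcriptome records the handling as well as the cell of origin. Idioblasts are scattered leaf cells that accumulate monoterpenoid indole alkaloids (MIAs), while the surrounding common mesophyll carries out most photosynthesis of the leaf.

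All plants were of the cultivar Little Bright Eye, raised at 25 °C with 16 h of light a day. One experiment used fluorescence-activated cell sorting (FACS), in which sorted idioblast protoplasts, sorted common mesophyll protoplasts and unsorted total protoplasts (3 samples each) were sequenced beside whole leaves of the same experiment (2 samples, called FACS leaves), with each replicate from its own set of plants. In the second experiment, flowering plants were moved outdoors into direct sun for several months or kept in the growth chamber (indoors), and leaves were collected from 3 plants per condition as pairs 1 (youngest) to 4, with the central vein removed. Short Illumina reads were made of leaf pairs 1 and 4, and long Nanopore reads of leaf pairs 2 and 3. The libraries of the FACS experiment were made with Smart-seq2 and those of leaf pairs 1 and 4 with TruSeq, and RNA of protoplasts and of FACS leaves was extracted with different kits. Enzyme treatment, extraction kit and the cells recovered change together between protoplasts and leaves, so they cannot be told apart, and in bulk samples neither can fewer cells of a type and less RNA per cell. The label of the gene set, raised by protoplast isolation, is therefore read here only as higher in isolated protoplasts than in leaves.

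The Illumina samples had 10263533 to 17625811 counts over genes and the Nanopore samples 85976 to 732961, so that leaf pairs 2 and 3 were measured far less deeply. The defining genes of other cell types differed between the groups that chose the 150 genes. The 4 idioblast genes (SS, THAS, DAT, D4H) summed to 88.7 to 132 CPM in total protoplasts and 1022 to 1063 CPM in FACS leaves, and 4 of 4 fell. The 6 genes of the internal phloem-associated parenchyma (IPAP, the vein cells in which the iridoid part of the MIA pathway starts) summed to 141 to 272 CPM in total protoplasts and 351 to 1797 CPM in FACS leaves, and 4 of 6 fell. The 8 epidermis genes summed to 1579 to 2065 CPM in total protoplasts and 872 to 2870 CPM in FACS leaves, of which 3 fell and 1 rose. Of these 18 genes, only THAS, the tetrahydroalstonine synthase of a side branch of the MIA pathway, had no count in 1 of the total protoplast samples, and none was without counts in a FACS leaf. The part of these cell types in the result was not tested. The FACS leaf samples differed from each other in many of these genes. Over all genes with enough counts, their mean squared difference was 232 times the counting variance, against at most 53.2 between replicates of any other group. The study left these leaves out of its model for their higher spread within the group, and discarded a further leaf sample for degraded RNA. Without the FACS leaves in the leaf term, 88 of the 150 genes would still be taken, against 118 with the FACS leaves as the only leaves.

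The 150 genes made up 16.7 to 18.0% of all counts in total protoplasts (17.5% ± 0.66, SD, n = 3), against 0.265 to 0.290% in FACS leaves (n = 2). The share was 16.7 to 18.2% in idioblast protoplasts and 14.9 to 16.2% in mesophyll protoplasts. Across the 14 Illumina leaf samples it lay between 0.157 and 0.290%, and across the 12 Nanopore leaf samples, which had no part in the choice, between 0.105 and 0.234%. Protoplast and leaf samples did not overlap.

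**Figure D1:**
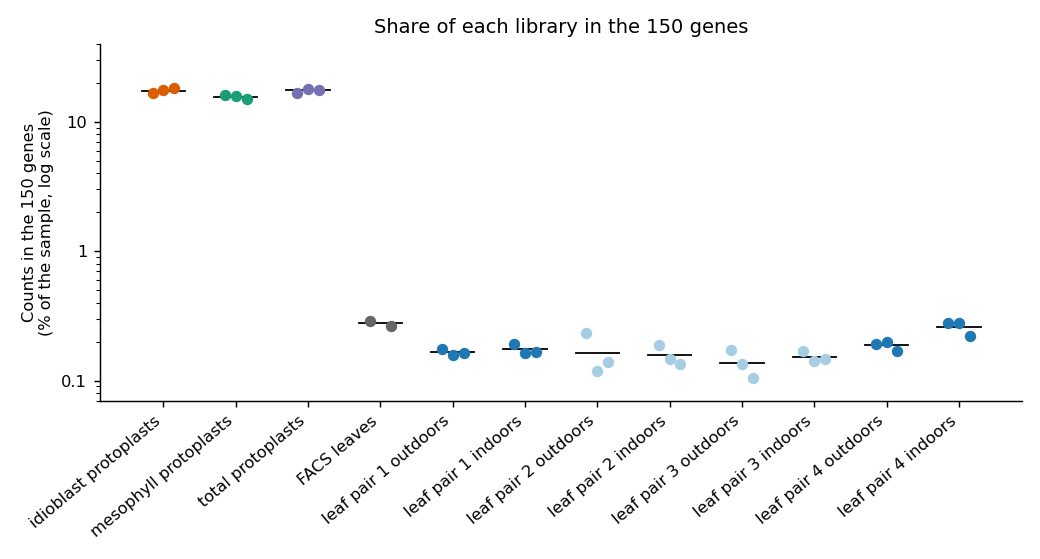
Share of each library in the 150 genes, in percent of counts on a log axis, with 1 point per sample and a line at the group mean. The 9 protoplast samples sit between 14.9 and 18.2% and the 26 leaf samples at or below 0.290%.

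A few of the genes carried much of this share. The 10 with the highest CPM in total protoplasts held 7.90 to 7.97% of the counts there, against 0.0943 to 0.107% in FACS leaves. Ordered by group mean counts, which were not divided by transcript length, 8 of the 10 genes with the most counts in total protoplasts belonged to the set, as did 34 of the first 100. By the mean of the FACS leaves, none of the 150 was among the first 500 genes there and the highest of them, CATHA_26799, stood at rank 723, while in each single FACS leaf sample 1 of the 150 was among the first 500.

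The log2 ratio of total protoplasts to the highest leaf group ran from 4.15 to 11.70 with a median of 5.49. Mean levels in total protoplasts were 50.2 to 12689 CPM (median 393 CPM), and 38 genes reached 1000 CPM. The highest leaf group means were 0 to 233 CPM (median 5.37 CPM) and lay under 10 CPM for 86 genes. The highest leaf group was the FACS leaves for 69 genes, leaf pair 4 indoors for 32, leaf pair 1 indoors for 22, leaf pair 4 outdoors for 16 and leaf pair 1 outdoors for 11. For all 150, the lowest total protoplast sample was over 8 times the highest of the 14 Illumina leaf samples. At the edge of the set, CATHA_19938 and CATHA_22480 had log2 ratios of 4.149 and 4.145, and the next 2 genes outside, CATHA_23805 and CATHA_804, had 4.143 and 4.129, so the limit falls in a continuous range.

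**Figure D2:**
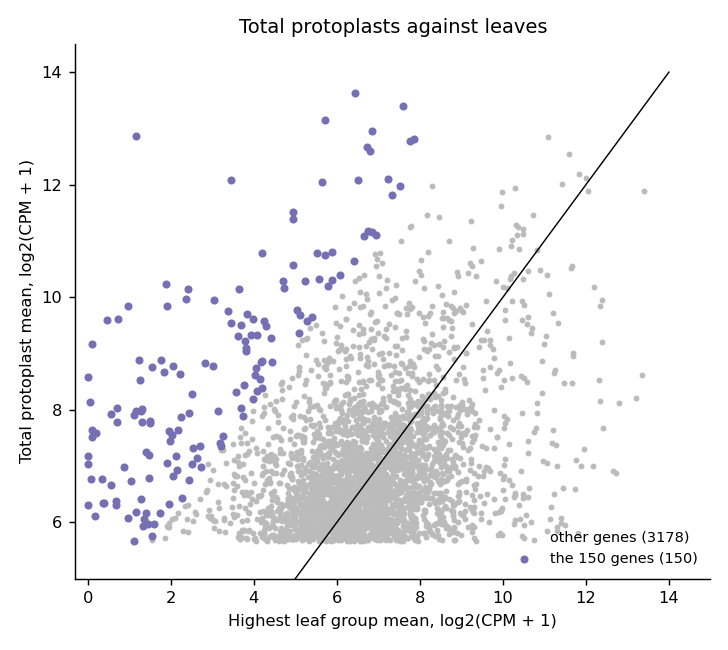
Mean level in total protoplasts (vertical axis) against the highest leaf group mean (horizontal axis), both as log2(CPM + 1), for the 3328 genes that met the first 2 conditions, with the 150 genes coloured and a line at equal levels. The 150 genes form the upper left rim and grade into the other genes.

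In edgeR's quasi-likelihood test of total protoplasts against FACS leaves, 150 of the 150 genes were called higher (Benjamini-Hochberg adjusted p of at most 0.05 and log2 fold change (FC) of at least 1), against 22.5% of the 17533 genes tested. Their median log2 FC was 6.79, against -0.17 over all genes tested. This contrast chose the genes, so nothing is read from the count.

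CATHA_25305 had the largest ratio of all. It had 7474, 7019 and 7810 CPM in total protoplasts, against 1.97 and 0.487 CPM in FACS leaves. The other 12 Illumina leaf samples had at most 1.61 CPM, and none of the 12 Nanopore samples had a count. The sorted protoplasts were all high, with 3662, 3287 and 4517 CPM in idioblasts and 6357, 5266 and 4235 CPM in mesophyll protoplasts. CATHA_25306, the next gene number in the annotation, was also in the set at rank 8, with 755, 1443 and 1440 CPM in total protoplasts, against 1.82 and 0.779 CPM in FACS leaves. Only 1 other pair of consecutive numbers occurred, CATHA_5516 and CATHA_5517. Whether consecutive numbers are neighbours or close copies is not given in the sources used here, and counts of close copies can share reads.

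The next ranks behaved alike. CATHA_13238, at rank 2, had 754, 758 and 816 CPM in total protoplasts, against 0 and 0.39 CPM in FACS leaves. CATHA_28839, at rank 3, had 367, 883 and 481 CPM in total protoplasts and no count in either FACS leaf. CATHA_21168, at rank 4, had 757, 839 and 745 CPM in total protoplasts, against 0.304 and 0.39 CPM in FACS leaves. For these 3 genes every leaf sample on the Illumina platform stayed under 1 CPM. CATHA_26906 and CATHA_6322, at ranks 5 and 6, averaged 921 and 4330 CPM in total protoplasts, with highest leaf group means of 0.97 and 9.92 CPM. CATHA_18032, at rank 10, averaged 914 CPM in total protoplasts and 2.75 CPM in its highest leaf group.

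Highest in level was CATHA_12164, with 13534, 12804 and 11729 CPM in total protoplasts, against 52.3 and 49.4 CPM in FACS leaves. CATHA_26799 followed with 11241, 10644 and 10641 CPM in total protoplasts, against 82.3 and 305 CPM in FACS leaves. CATHA_10087 had 9309, 9218 and 8712 CPM in total protoplasts, against 56.4 and 45.9 CPM in FACS leaves. These genes were plainly detected in leaves. The remaining genes among the 10 highest were CATHA_22505, CATHA_31491, CATHA_30260, CATHA_27457, CATHA_15541, the glutathione S-transferase CATHA_5516 and CATHA_25305, with means of 4407 to 7940 CPM in total protoplasts.

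Replicates of total protoplasts were close for most of the genes, with a coefficient of variation of 0.961 to 58.6% (median 13.7%). The widest was CATHA_9964, with 120, 480 and 508 CPM in total protoplasts. Its sorted protoplasts varied in a like manner, with 84.2, 411 and 329 CPM in idioblasts and 103, 410 and 193 CPM in mesophyll protoplasts, so that replicate 1 was lowest in each population.

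Descriptions were found in the tables of the study for 21 of the 150 genes, compared with 1284 of all 35722 genes. Those tables list mainly genes chosen for high idioblast or module expression in these same samples, so the described genes are not a random sample of the set, and 129 genes go by number only. The described genes are placed by hand under defence and stress proteins, regulators, wall and sugar enzymes, and detoxification and transport. Those that belong to none of these are given beside them or last. The grouping only orders the text and was not tested.

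**Figure D3:**
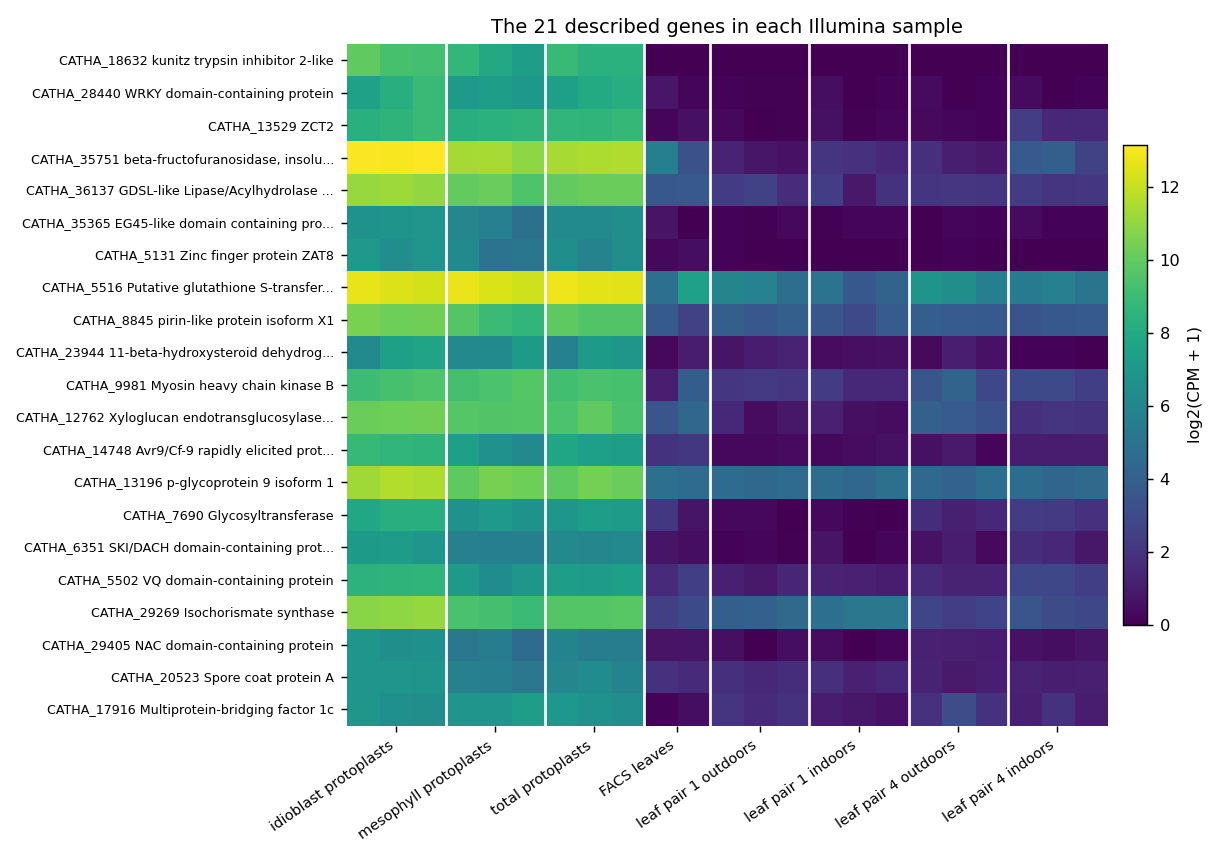
The 21 described genes (rows, by rank) in each of the 23 Illumina samples (columns, grouped), coloured by log2(CPM + 1). The columns of the 9 protoplast samples are bright for all 21 genes and those of the 14 leaf samples are dark, with the glutathione S-transferase, the p-glycoprotein and isochorismate synthase the most visible in leaves.

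Among defence and stress proteins, CATHA_18632 is annotated as a Kunitz trypsin inhibitor, a family of protease inhibitors that hinder digestion by herbivores. It had 469, 338 and 342 CPM in total protoplasts, against 0 counts in 14 of 14 Illumina leaf samples, and none in the Nanopore leaves. With a floor of 3 counts over those 14 samples, it was at least 22998-fold higher in total protoplasts. CATHA_25383, CATHA_3156 and CATHA_23108 also lacked counts in all 14, and were at least 8690-fold, 7879-fold and 4695-fold higher by the same floor. These bounds cover counting error only.

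Isochorismate synthase (CATHA_29269) makes the precursor from which much of the salicylic acid of plants is formed under attack. It had 791, 805 and 864 CPM in total protoplasts, against 4.71 and 6.82 CPM in FACS leaves. Multiprotein-bridging factor 1c (CATHA_17916), in Arabidopsis a transcriptional coactivator of the heat response, had 129, 104 and 85.8 CPM in total protoplasts, against 0.0759 and 0.39 CPM in FACS leaves. It was higher in leaf pair 4 outdoors, with 34, 90 and 33 counts, against 1 and 4 counts in FACS leaves. CATHA_14748 resembles a tobacco transcript that appears soon after recognition of a fungal protein, and averaged 186 ± 32.9 CPM in total protoplasts (SD, n = 3), against 3.11 CPM in FACS leaves. The VQ protein CATHA_5502 belongs to a family that binds WRKY factors in Arabidopsis, and had 161, 156 and 169 CPM in total protoplasts, against 1.97 and 4.38 CPM in FACS leaves.

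Of the described genes, 4 encode putative transcription factors. ZCT2 (CATHA_13529) is a zinc finger protein of C. roseus that represses promoters of early MIA genes. It had 404, 385 and 439 CPM in total protoplasts, against 0.152 and 0.487 CPM in FACS leaves. The WRKY protein CATHA_28440 had 169, 264 and 293 CPM in total protoplasts, against 0.759 and 0.195 CPM in FACS leaves. The zinc finger protein ZAT8 (CATHA_5131) had 92.7, 57.9 and 90.3 CPM in total protoplasts, against 0.228 and 0.39 CPM in FACS leaves. The NAC protein CATHA_29405 was the lowest of the set, with 60.7, 44.7 and 45.3 CPM in total protoplasts, against 0.607 and 0.682 CPM in FACS leaves.

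The relatives of ZCT2 among the MIA regulators were also higher in total protoplasts, but did not enter the set. ZCT1 (CATHA_38787), at rank 182, had 350, 293 and 442 CPM in total protoplasts, against 0.683 and 1.46 CPM in FACS leaves (log2 FC 8.84, SE 0.46, edgeR adjusted p = 4.39e-07). Its leaf term was 24.7 CPM, from leaf pair 4 indoors. ZCT3 (CATHA_28203) had 398, 351 and 603 CPM in total protoplasts, against 45.0 and 142 CPM in FACS leaves (log2 FC 2.63, SE 0.51, edgeR adjusted p = 0.0012), and 229 CPM in leaf pair 4 indoors. Of the 17 tested MIA regulators, 5 rose and 5 fell in total protoplasts against FACS leaves, beside 22.5% higher and 27.5% lower among all genes tested, so the list lay near the overall shares. Those that fell included ORCA4, an activator of MIA genes, which had no count in the 3 total protoplast samples.

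Enzymes of walls and sugars are given next, with a GDSL lipase and an EG45-like protein beside them. CATHA_35751, annotated as a cell wall invertase, which splits sucrose outside the cell, had 2783, 2961 and 3088 CPM in total protoplasts, against 51.0 and 8.57 CPM in FACS leaves. The xyloglucan endotransglucosylase/hydrolase CATHA_12762, which cuts and rejoins the hemicellulose that tethers cellulose, had 703, 975 and 680 CPM in total protoplasts, against 10.3 and 19.4 CPM in FACS leaves. The GDSL lipase CATHA_36137 had 1030, 1198 and 1154 CPM in total protoplasts, against 11.2 and 11.8 CPM in FACS leaves. The EG45-like protein CATHA_35365 had 73.9, 76.8 and 90.0 CPM in total protoplasts, against 0.607 and 0 CPM in FACS leaves.

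Glutathione S-transferases couple glutathione to reactive compounds, and the putative one in the set, CATHA_5516, had 7254, 6258 and 6037 CPM in total protoplasts, against 27.3 and 183 CPM in FACS leaves. The p-glycoprotein CATHA_13196, an ABC transporter, had 941, 1363 and 1143 CPM in total protoplasts, against 27.2 and 23.6 CPM in FACS leaves. It lay between 16.6 and 28.2 CPM in all 14 Illumina leaf samples, a narrow range. The glycosyltransferase CATHA_7690, which belongs to enzymes that attach sugars, averaged 144 CPM in total protoplasts, against 2.05 CPM in FACS leaves. Total protoplast means of the other described genes were 829 CPM for the pirin-like CATHA_8845, 631 CPM for CATHA_9981, 106 CPM for the dehydrogenase CATHA_23944, 71.1 CPM for CATHA_20523 and 70.6 CPM for CATHA_6351, and their highest leaf group means were 1.07 to 13.4 CPM.

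The wider gene lists, formed from the same study tables, give the setting of these members in total protoplasts against FACS leaves, where 22.5% of all genes tested were called higher and 27.5% lower. Of 30 tested heat shock and chaperone genes, none of them in the set, 15 rose and 5 fell, with a median log2 FC of 1.48. Their sum was 3597 to 3607 CPM in total protoplasts, against 790 to 967 CPM in FACS leaves. Of 15 defence genes, 9 rose and 3 fell, of 23 detoxification and transport genes 11 rose and 3 fell, and of 22 wall genes 8 rose and 4 fell. Among regulators, 5 of 10 WRKY genes, 4 of 7 NAC genes and 5 of 10 C2H2 zinc finger genes rose, with 2 of each list falling. Of 12 AP2/ERF genes none rose and 2 fell, and of 22 MYB genes 5 rose and 5 fell. Of 45 protein kinase genes 15 rose and 12 fell, of 24 ubiquitin ligase genes 10 and 6, and of 14 calcium signalling genes 5 and 3. Of 44 MIA enzymes 5 rose and 23 fell, of 7 MIA transporters 1 and 3, and of 6 ethylene and jasmonate genes 3 and 0. Most of these lists hold genes picked for their levels in these samples, and they are no independent evidence of direction.

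Levels in the sorted protoplasts are largely set by the choice of the genes, which needed high total protoplasts, low leaves and similar idioblast and mesophyll means, and are given as a description. For all 150 genes, every idioblast and every mesophyll protoplast sample was above every one of the 14 Illumina leaf samples, and both population means were over 8 times the highest leaf group mean. Mesophyll means lay within 2-fold of total protoplasts for 150 of 150 genes, with a ratio of 0.527 to 1.74 (median 0.887). Idioblast means lay within 2-fold of total protoplasts for 133 genes, were more than 2-fold lower for 9 and more than 2-fold higher for 8, with a ratio of 0.205 to 4.87 (median 1.02).

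**Figure D4:**
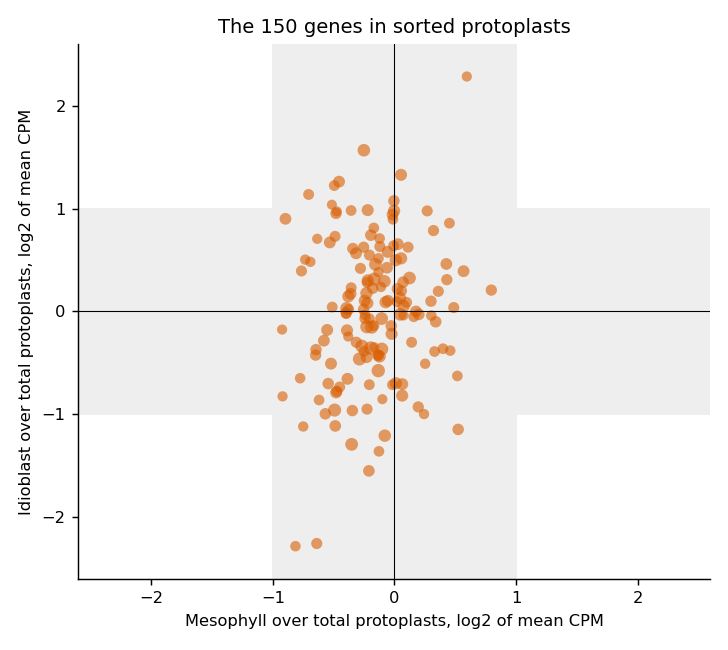
Mean CPM of the 150 genes in idioblast (vertical axis) and mesophyll protoplasts (horizontal axis), each over total protoplasts on a log2 scale, with 1 point per gene sized by its CPM in total protoplasts and grey bands within 2-fold. Along the horizontal axis all points lie in the band, and along the vertical axis 17 lie outside it.

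Between the sorted populations the choice itself bounded the difference at under 4-fold. Within that bound, 89 genes were higher in idioblasts and 61 in mesophyll protoplasts, with 19 and 9 past 2-fold. In edgeR's test over 21 Illumina samples, 17 of the 150 genes were called higher in idioblast than in mesophyll protoplasts, against 7.21% of 18339 genes tested, and 8 lower, against 9.12%. These shares are limited by the rule and are given as a description. The number lower was 4 without idioblast replicate 1, 5 without mesophyll replicate 3 and 13 without mesophyll replicate 1. Marker sums differed too. The epidermis genes summed to 135 to 180 CPM in idioblasts and 1712 to 2097 CPM in mesophyll protoplasts (8 of 8 lower in idioblasts). The IPAP genes summed to 84.8 to 137 CPM in idioblasts and 121 to 191 CPM in mesophyll protoplasts, with overlap (3 of 6 lower). The idioblast genes summed to 1204 to 2659 CPM in idioblasts and 38.5 to 104 CPM in mesophyll protoplasts (4 of 4 higher). The part of these cell types in the result was not tested.

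The 3 highest idioblast to mesophyll ratios belonged to CATHA_14748, the invertase CATHA_35751 and CATHA_10184, a gene of unknown function. The invertase had 8654, 8324 and 9186 CPM in idioblasts, against 2727, 2751 and 1942 CPM in mesophyll protoplasts (log2 FC 1.80, SE 0.32), and was the gene with the most counts in idioblasts. CATHA_14748 had 444, 411 and 372 CPM in idioblasts, against 170, 99.4 and 72.5 CPM in mesophyll protoplasts (log2 FC 1.84, SE 0.23). CATHA_10184 averaged 1392 CPM in idioblasts, against 401 CPM in mesophyll protoplasts. In all 3 genes the lowest idioblast sample was above the highest mesophyll sample. Isochorismate synthase likewise had 1784, 1933 and 2180 CPM in idioblasts, against 666, 621 and 507 CPM in mesophyll protoplasts (log2 FC 1.70, SE 0.19).

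At the other end were CATHA_19732, CATHA_5517 and CATHA_17906, which go by number only. CATHA_19732 averaged 211 CPM in idioblasts and 673 CPM in mesophyll protoplasts (log2 FC -1.71, SE 0.37). CATHA_5517 averaged 58.8 CPM in idioblasts and 180 CPM in mesophyll protoplasts (log2 FC -1.62, SE 0.23). CATHA_17906 averaged 20.8 CPM in idioblasts and 57.5 CPM in mesophyll protoplasts (log2 FC -1.50, SE 0.21).

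The Nanopore leaves of pairs 2 and 3 were not used in the choice of genes, and the genes were scarce there as well. The mean over the 12 samples was under an eighth of the total protoplast mean for 150 of 150 genes, with a median of 1.79 CPM, and 25 genes had no count in any of them. The same counts were not made for genes outside the set. At this depth a gene without counts can still be present. For 18 genes the Nanopore mean was above the leaf term of the choice. Library, sequencer and counting differ from the Illumina samples, so the levels are only set side by side. With 1 exception, the highest Nanopore sample of each gene stayed below its total protoplast mean. The exception, CATHA_30046, had 184 CPM in replicate 1 of leaf pair 2 outdoors and at most 27.6 CPM in the other 11, against 206, 172 and 101 CPM in total protoplasts. Its mesophyll and idioblast samples were between 210 and 381 CPM.

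Within the intact leaves, the question was whether the low levels of the set moved with growth condition or leaf position. These contrasts between leaf groups are not the contrast that chose the genes, although the same leaves set their low level. The leaf fit over 12 Illumina samples tested 117 of the 150 genes, the others having too few counts. A gene can pass that filter through the group in which it is high, so the counts are given beside the share among all 17299 genes tested, and as no evidence about the set.

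Outdoors against indoors in leaf pair 4, 39 of 117 tested genes fell, against 11.4% of all genes tested, and 5 rose, against 5.75%. In leaf pair 1, 15 fell, against 2.45% of all genes tested, and 1 rose, against 4.12%. At an unadjusted edgeR p under 0.05, 26 were lower and 13 higher in leaf pair 1, a count not made over all genes tested. The median log2 FC of the 117 tested genes was -0.66 in leaf pair 4 and -0.08 in leaf pair 1, compared with -0.09 and -0.01 over all genes tested. Of the genes that fell, 12 did so in both leaf pairs (12 of 39 and 12 of 15). The same overlap was not counted over all genes tested, and both leaf pairs came from the same plants, so nothing is read from it. The summed share was 0.170 to 0.200% outdoors and 0.221 to 0.277% indoors in leaf pair 4, without overlap, and 0.157 to 0.175% outdoors and 0.162 to 0.193% indoors in leaf pair 1, with overlap. Marker sums moved too. The epidermis genes summed to 164 to 300 CPM outdoors and 610 to 895 CPM indoors in leaf pair 4 (5 of 8 fell), and to 1701 to 1815 CPM outdoors and 2361 to 2673 CPM indoors in leaf pair 1 (0 of 8 called). The idioblast genes summed to 522 to 646 CPM outdoors and 1070 to 1203 CPM indoors in leaf pair 4 (1 of 4 fell), and to 729 to 1038 CPM outdoors and 1186 to 1219 CPM indoors in leaf pair 1 (0 of 4 called). The IPAP genes summed to 456 to 675 CPM outdoors and 507 to 709 CPM indoors in leaf pair 4, with overlap, and to 958 to 1142 CPM outdoors and 1221 to 1332 CPM indoors in leaf pair 1, with 0 of 6 called in either. The part of these cell types in the result was not tested. In leaf pair 1 the count that fell was 8 without indoors replicate 1.

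**Figure D5:**
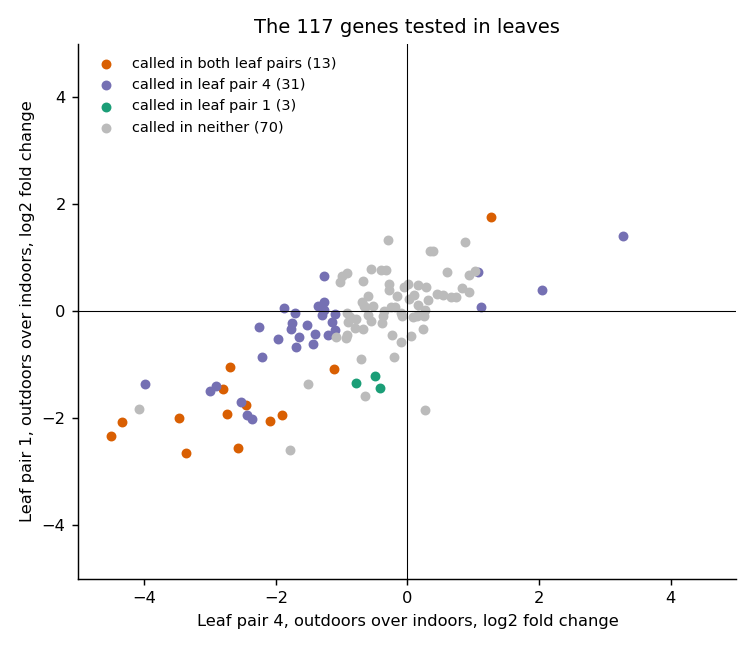
Outdoors over indoors log2 FC of the 117 tested genes in leaf pair 1 (vertical axis) against leaf pair 4 (horizontal axis), with 1 point per gene coloured by where it was called. Of the 13 genes called in both, 12 lie at the lower left and 1 at the upper right, and 31 were called in leaf pair 4 alone, 3 in leaf pair 1 alone and 70 in neither.

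CATHA_31630, a gene of unknown function with 680, 753 and 852 CPM in total protoplasts, was lower outdoors in all 4 leaf pairs. All leaf pairs came from the same plants of each condition, so these comparisons are not independent of one another. In leaf pair 1 it had 0.970, 1.85 and 1.92 CPM outdoors, against 5.05, 7.75 and 8.19 CPM indoors (log2 FC -2.07, SE 0.39, edgeR adjusted p = 0.0038). In leaf pair 4 it had 0.240, 0.259 and 0.652 CPM outdoors, against 4.02, 8.65 and 9.71 CPM indoors (log2 FC -4.33, SE 0.49, edgeR adjusted p = 5.9e-05). The groups did not overlap in either leaf pair. In the Nanopore samples it had 0, 5.72 and 0 CPM outdoors, against 23.3, 21.7 and 14.3 CPM indoors in leaf pair 2 (log2 FC -2.81, SE 0.89, edgeR adjusted p = 0.034), and 1.84, 2.2 and 1.36 CPM outdoors, against 11, 22.1 and 19.6 CPM indoors in leaf pair 3 (log2 FC -2.94, SE 0.85, edgeR adjusted p = 0.016). The Nanopore calls rest on few reads. Without indoors replicate 1, 2 or 3 the adjusted p of leaf pair 2 was 0.059, 0.19 or 0.059, and without outdoors replicate 1 or 3 it was 0.089 or 0.15. In leaf pair 3 it was 0.077 without indoors replicate 2 and 0.052 without outdoors replicate 1.

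CATHA_31491, one of the 10 highest of the set in total protoplasts, showed the same order, again in leaf pairs of the same plants. It had 22.4, 28.4 and 19.6 CPM outdoors, against 107, 75 and 64.2 CPM indoors in leaf pair 1 (log2 FC -1.75, SE 0.25, edgeR adjusted p = 0.00083). In leaf pair 4 it had 40.9, 59.1 and 36.1 CPM outdoors, against 255, 243 and 200 CPM indoors (log2 FC -2.45, SE 0.25, edgeR adjusted p = 3.2e-05). The Nanopore log2 FC was -1.67 (SE 0.45, edgeR adjusted p = 0.014) in leaf pair 2 and -2.02 (SE 0.42, edgeR adjusted p = 0.001) in leaf pair 3. The leaf pair 2 value has an adjusted p of 0.14, 0.069 or 0.063 without indoors replicate 2, outdoors replicate 2 or outdoors replicate 3.

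Among described genes, ZCT2 fell outdoors in leaf pair 4, with 0.240, 0.173 and 0.0816 CPM outdoors, against 4.18, 1.78 and 1.81 CPM indoors (log2 FC -3.98, SE 0.71, edgeR adjusted p = 0.001). In leaf pair 1 it had at most 0.532 CPM in any sample, and its log2 FC of -1.35 (SE 1.00, edgeR adjusted p = 0.36) did not pass. The invertase CATHA_35751 had 2.48, 1.12 and 0.897 CPM outdoors, against 11.9, 15 and 5.10 CPM indoors in leaf pair 4 (log2 FC -2.90, SE 0.49, edgeR adjusted p = 0.00073). Even the higher of these leaf levels is a small fraction of the protoplast level.

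The few genes that rose outdoors include 3 described ones. The xyloglucan endotransglucosylase/hydrolase CATHA_12762 had 15.7, 12.8 and 8.56 CPM outdoors, against 2.47, 3.14 and 2.80 CPM indoors in leaf pair 4 (log2 FC 2.05, SE 0.46, edgeR adjusted p = 0.0038). The dehydrogenase CATHA_23944 had 0.240, 1.12 and 0.571 CPM outdoors, against 0.0773, 0.0848 and 0 CPM indoors in leaf pair 4 (log2 FC 3.28, SE 0.83, edgeR adjusted p = 0.0077), a value set by few reads. Multiprotein-bridging factor 1c had 3.13, 2.05 and 2.78 CPM outdoors, against 0.998, 0.789 and 0.585 CPM indoors in leaf pair 1 (log2 FC 1.77, SE 0.52, edgeR adjusted p = 0.032). In leaf pair 4 it had 34, 90 and 33 counts outdoors, against 16, 33 and 13 counts indoors, with overlap (log2 FC 1.28, SE 0.48, edgeR adjusted p = 0.048). Its leaf pair 1 call was lost on leaving out indoors replicate 2 or 3 or any outdoors replicate (adjusted p 0.055 to 0.10), and that of leaf pair 4 on leaving out indoors replicate 1 or 3 or outdoors replicate 2 (0.15, 0.14 and 0.28). The remaining 2 that rose in leaf pair 4 were CATHA_14867 (log2 FC 1.12) and CATHA_34373 (log2 FC 1.07). The call of CATHA_14867 was lost in 7 of 11 alternatives, among them each left-out indoors replicate and outdoors replicates 1 and 2 (edgeR adjusted p up to 0.138), and CATHA_34373 had a log2 FC of 0.96 without outdoors replicate 1. The number that rose was 3 without indoors replicate 3 or outdoors replicate 2, and 8 without outdoors replicate 3.

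In the Nanopore fit 23 of the 150 genes could be tested. Outdoors against indoors, 3 fell and 0 rose in leaf pair 2, against 4.18% lower and 6.01% higher among all 5641 genes tested. At an unadjusted edgeR p under 0.05, 2 were higher and 6 lower in leaf pair 2. In leaf pair 3, 4 were higher and 6 lower at that p. The share of all genes at that p was not counted, so nothing is read from these counts. DESeq2 called 1 lower and 0 higher in leaf pair 2. In leaf pair 3, 4 fell and 2 rose, against 6.67% and 6.51% of all genes tested, while DESeq2 called 2 lower and 1 higher. Without any 1 of the replicates at most 2 fell in leaf pair 2, with 0 without indoors replicate 2 or outdoors replicate 3. In leaf pair 3, 2 fell without indoors replicate 2 or outdoors replicate 1.

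Leaf position was compared as leaf pair 4, the older leaves, against leaf pair 1. Indoors, 42 of 117 tested genes rose and 8 fell, against 11.5% and 10.8% of all genes tested. Outdoors, 23 rose and 13 fell, against 8.41% and 13.9%. Both comparisons named 17 genes as higher (17 of 42 and 17 of 23) and 5 as lower (5 of 8 and 5 of 13). These overlaps were not counted over all genes tested either, and nothing is read from them. The median log2 FC of the tested genes was 0.71 indoors and 0.38 outdoors, compared with 0.05 and 0.00 over all genes tested. The epidermis genes moved most among the markers. Indoors they summed to 610 to 895 CPM in leaf pair 4 and 2361 to 2673 CPM in leaf pair 1 (5 of 8 fell), and outdoors to 164 to 300 CPM in leaf pair 4 and 1701 to 1815 CPM in leaf pair 1 (8 of 8 fell). The IPAP genes summed to 507 to 709 CPM in leaf pair 4 and 1221 to 1332 CPM in leaf pair 1 indoors, and to 456 to 675 CPM in leaf pair 4 and 958 to 1142 CPM in leaf pair 1 outdoors, with 2 of 6 falling in each. The idioblast genes summed to 1070 to 1203 CPM in leaf pair 4 and 1186 to 1219 CPM in leaf pair 1 indoors (2 of 4 fell), and to 522 to 646 CPM in leaf pair 4 and 729 to 1038 CPM in leaf pair 1 outdoors (0 of 4 called). Their part in the difference was not tested.

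The largest called rise with leaf position indoors was that of the glycosyltransferase CATHA_7690. It had 3.87, 3.73 and 2.63 CPM in leaf pair 4, against 0.200, 0.0717 and 0 CPM in leaf pair 1 indoors (log2 FC 5.23, SE 0.63, edgeR adjusted p = 8.2e-05). Outdoors it had 2.24, 1.21 and 1.88 CPM in leaf pair 4, against 0.224, 0.198 and 0 CPM in leaf pair 1 (log2 FC 3.66, SE 0.63, edgeR adjusted p = 0.00056). CATHA_15682, which averaged 2305 CPM in total protoplasts, had 101, 137 and 84.3 CPM in leaf pair 4, against 10.04, 5.74 and 7.86 CPM in leaf pair 1 indoors (log2 FC 4.00, SE 0.24, edgeR adjusted p = 1.9e-05). CATHA_24191 had 187, 253 and 112 CPM in leaf pair 4, against 26.5, 10.9 and 11.9 CPM in leaf pair 1 indoors (log2 FC 3.70, SE 0.43, edgeR adjusted p = 7.2e-05). ZCT2 was also higher in leaf pair 4 than in leaf pair 1 indoors (log2 FC 3.46, SE 0.64, edgeR adjusted p = 0.00094).

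Outdoors, the largest called rise was in CATHA_11478, with 3.84, 4.32 and 3.18 CPM in leaf pair 4, against 0.0746, 0.264 and 0 CPM in leaf pair 1 (log2 FC 4.99, SE 0.53, edgeR adjusted p = 3.7e-05). The xyloglucan enzyme CATHA_12762 rose as well, with 1.72, 0.331 and 0.783 CPM in leaf pair 1 outdoors standing below the leaf pair 4 values given above (log2 FC 3.82, SE 0.51, edgeR adjusted p = 0.00012).

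Isochorismate synthase went the other way. It had 10.1, 7.47 and 6.34 CPM in leaf pair 4, against 26.9, 37.2 and 37.4 CPM in leaf pair 1 indoors (log2 FC -1.84, SE 0.20, edgeR adjusted p = 5.6e-05). Outdoors it had 5.85, 4.32 and 5.30 CPM in leaf pair 4, against 14.7, 15.6 and 22.6 CPM in leaf pair 1 (log2 FC -1.67, SE 0.21, edgeR adjusted p = 8.2e-05). The groups did not overlap in either condition. CATHA_21032 also fell with leaf position in both, with a log2 FC of -1.81 indoors and -2.15 outdoors. CATHA_6379 fell in both as well, with 0.232, 0 and 0.329 CPM in leaf pair 4, against 0.931, 1.29 and 1.25 CPM in leaf pair 1 indoors (log2 FC -2.32, SE 0.59, edgeR adjusted p = 0.0087). Outdoors it had no count in leaf pair 4, against 0.149, 0.264 and 0.214 CPM in leaf pair 1 (edgeR adjusted p = 0.022), a call from few reads that was lost in 2 of 10 alternatives.

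The interaction asked whether the outdoors effect differed between leaf pairs 4 and 1. It was more negative in leaf pair 4 for 9 of 117 tested genes, against 3.25% of all genes tested. It was more positive for 0, against 0.74%, and for 1 by DESeq2. At an unadjusted edgeR p under 0.05, 31 were more negative and 2 more positive, a count not made over all genes tested. Each plant gave both leaf pairs, and this fit had no term for the plant. With the plant as a block, 13 genes were more negative, 8 of them among the 9, against 3.04% of all genes tested. The number more negative ranged from 1 without outdoors replicate 2 of leaf pair 1 to 15 without indoors replicate 1 of leaf pair 1, and was 3 to 5 without most of the other leaf samples. Each of the 9 calls was lost in at least 1 of 16 alternatives. In all, 81 of the 117 tested genes were called in at least 1 of the 4 Illumina leaf comparisons and 36 in none, beside 36.1% of all 17299 genes tested that were called in at least 1.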

How the data were processed

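Whole-leaf and protoplast RNA of C. roseus was sequenced in 35 samples, 23 by Illumina and 12 by Nanopore. The Illumina values deposited by the authors are raw counts of reads per gene, made with featureCounts 2.0.1 after trimming (Trimmomatic 0.39) and alignment (HISAT2) on version 2 of the species' genome. The Nanopore values deposited by the authors are estimated counts from Salmon 1.4.0 on reads aligned with minimap2, tools that the submitters' processing notes list. Both were used as deposited, without prior scaling. No strand option is stated for the counting, so overlapping or antisense genes cannot be separated. Where nothing more is said, CPM use column totals.

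Genes were filtered with filterByExpr, scaled by TMM and tested with edgeR 4.0.16 (robust glmQLFit, glmQLFTest) in R 4.3.3, with Benjamini-Hochberg adjustment over all genes tested. A gene was called where its adjusted p was 0.05 or less and its log2 FC 1 or more in size. The SE is the log2 FC over the root of F. Nanopore estimated counts were rounded. The fits covered 11 FACS samples (total protoplasts against FACS leaves), 21 Illumina samples without FACS leaves (idioblasts against mesophyll), 12 Illumina leaf samples and 12 Nanopore samples. With 3 samples per group, or 2 FACS leaves, p-values measure the spread between these samples. That spread was estimated per gene over all groups of a fit, not over the 2 compared groups alone. In the fit of the FACS samples most samples are protoplasts, whose replicates differed less than the 2 FACS leaves. No 2 replicates agreed within sampling noise. Each fit was run on simulated counts with planted changes and the same spread for all genes and samples. The simulation did not copy the wider spread between the FACS leaves, so it does not show how the fit performs there.

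The members, gene lists and tests were chosen with earlier results of these data known. Named genes were ranks 1 to 10, the 10 highest in total protoplasts, described members, genes at the edge of the set, the 3 highest and lowest idioblast to mesophyll ratios, the 5 largest non-overlapping calls per leaf comparison and direction (without the overlap condition for the interaction), MIA regulators and cell type markers. From these rules, a choice is given. CATHA_10184, CATHA_9964, CATHA_30046, CATHA_25383, CATHA_3156 and CATHA_23108 were also singled out, and CATHA_31491 was described in more comparisons, after their values were seen. Of all gene IDs, 0 matched the RefSeq table, so names come from the study's tables.

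The methods of the study call the FACS samples paired and took leaf pairs from the same plants. Equal numbers deviated together between idioblast and mesophyll protoplasts (correlations of 0.17 to 0.50) and between leaf pairs 4 and 1 outdoors (0.39 to 0.52), less clearly indoors (-0.03 to 0.30). Alternatives were DESeq2 1.42.0, RLE scaling, no count filter, single replicates left out, the replicate as a block, fits of the 2 compared groups alone, and changes to each term of the rule.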

Additional observations from a re-analysis of the deposited data

Results flagged for a closer look

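In 9 genes of the set the outdoors to indoors log2 FC differed between leaf pairs 4 and 1 by edgeR's interaction test over the 12 Illumina leaf samples, passing an adjusted p of 0.05 and differing by 1 or more in size. Each difference is leaf pair 4 minus leaf pair 1. The VQ protein CATHA_5502 differed by -1.94 (SE 0.40, edgeR adjusted p = 0.02), with an outdoors log2 FC of -1.88 in leaf pair 4 and 0.06 in leaf pair 1. In leaf pair 4 it had 2.00, 1.38 and 1.39 CPM outdoors, against 5.95, 6.28 and 4.44 CPM indoors. In leaf pair 1 it had 1.27, 0.860 and 1.71 CPM outdoors, against 1.4, 1.29 and 1.09 CPM indoors, so the groups were apart in leaf pair 4 and overlapped in leaf pair 1.

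CATHA_15682 differed by -1.68, with -1.71 in leaf pair 4 and -0.03 in leaf pair 1. CATHA_15541 differed by -1.66, with -2.69 in leaf pair 4 and -1.04 in leaf pair 1. CATHA_1762 differed by -1.44, CATHA_19938 by -1.24 and CATHA_24851 by -1.03, each with a negative log2 FC of -1.26 to -1.69 in leaf pair 4. CATHA_23922 differed by -1.25, with -0.67 in leaf pair 4 and 0.57 in leaf pair 1. CATHA_16007 differed by -1.10, with -0.33 in leaf pair 4 and 0.78 in leaf pair 1. CATHA_12164, the highest of the set in total protoplasts, differed by -1.31 (SE 0.36, edgeR adjusted p = 0.0496).

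The calls differ in how far they depend on single settings or samples. Of 16 alternatives, the call of CATHA_12164 was lost in 13 (adjusted p up to 0.119), that of CATHA_24851 in 13 (up to 0.105), CATHA_1762 in 10 (up to 0.0854), CATHA_23922 in 9 (up to 0.0969), CATHA_19938 in 8 (up to 0.0808) and CATHA_16007 in 5 (up to 0.0819). With the plant as a replicate block, CATHA_16007 had an adjusted p of 0.053. The call of CATHA_5502 was lost in 2, without indoors or outdoors replicate 3 of leaf pair 1 (0.0589 at most), and those of CATHA_15682 and CATHA_15541 in 1 each, without outdoors replicate 2 of leaf pair 1 (0.0555 and 0.0569).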

How the results depend on the processing

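Of the 390 values of single genes under settings other than a left-out replicate, 373 kept their direction and side of the threshold and 17 lost the call, and none reversed. Of 546 values with 1 replicate left out, 414 kept both and 132 lost the call. With DESeq2, 3 genes rose outdoors in leaf pair 1, 1 was more positive in the interaction, 1 fell in leaf pair 2, and 1 rose and 2 fell in leaf pair 3. With the replicate block, 3 rose in leaf pair 1 and 1 in leaf pair 2, and the block moved no other count of calls by over 1.5 times. RLE scaling gave 1 that rose in leaf pair 2. With the 2 compared groups alone, 2 rose in leaf pair 1, and 1 rose and 2 fell in leaf pair 3. With only leaf pairs 1 and 4 as the leaf term of the rule, 88 of the 150 genes remained.

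TMM-scaled totals gave a share of counts of 22.2% in idioblast, 20.7% in mesophyll and 23.7% in total protoplasts, 0.129% outdoors and 0.132% indoors in leaf pair 1, and 0.164% outdoors and 0.224% indoors in leaf pair 4. With 1 replicate left out, the number of genes ranged from 16 to 21 higher and 4 to 13 lower in idioblasts, 0 to 4 higher and 8 to 14 lower outdoors in leaf pair 1, 3 to 8 higher and 33 to 39 lower in leaf pair 4, 0 to 2 and 0 to 2 in leaf pair 2, 0 to 3 and 2 to 6 in leaf pair 3, and 1 to 15 more negative in the interaction. With leaf position it was 33 to 50 higher and 6 to 11 lower indoors, and 21 to 29 and 10 to 14 outdoors. The rule kept 137 to 147 genes. The median log2 FC of all genes in total protoplasts against FACS leaves was -0.17 with TMM, -0.21 with RLE and -0.62 with column totals. Outdoors and indoors samples of equal number are different plants, with correlations of -0.12 to 0.37. Genes under a few CPM in leaves rest on few reads.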
